A study of Mus musculus with 5 samples.

Results

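The genes described here encode the ligands of the bone morphogenetic protein (BMP), growth and differentiation factor (GDF), TGF-beta, inhibin/activin and fibroblast growth factor (FGF) families. They were chosen by symbol: every protein-coding gene on an autosome in GENCODE M21 (mouse genome build mm10) named Bmp, Gdf, Tgfb or Fgf with a number, together with the 5 inhibin and activin subunit genes, and without Bmp1, which encodes a protease. The rule itself uses names and no measured value, although the family was picked with earlier results of these data known, and it gave 47 genes out of 20807: 9 BMP, 10 GDF, 3 TGF-beta, 5 inhibin/activin and 20 FGF genes. Each gene was examined over its body plus 10 kb on each side, called its window below, and the windows ran from 21.6 to 719 kb with a median of 34.1 kb.

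BMPs, GDFs, TGF-betas and activins are secreted dimers of 1 superfamily, which signal through receptor serine/threonine kinases and SMAD proteins. Most FGFs are secreted and signal through receptor tyrosine kinases, a few act as hormones through Klotho co-receptors, and the FGF homologous factors stay inside the cell. In fat, BMP signals commit mesenchymal cells to the adipocyte lineage, TGF-beta and activin A hold preadipocytes back from differentiating, FGF1 and FGF10 act on preadipocytes and fat growth, and FGF21 is a metabolic hormone. MacroH2A is a histone H2A variant with a large globular domain that is often found over silent genes and in broad chromatin domains, and macroH2A1.2 is a splice form of it.

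The chromatin came from 3T3-L1 cells, a mouse fibroblast line that can be turned into adipocytes, which had been transduced with a lentivirus for stable expression of macroH2A1.2 fused to GFP. Chromatin cut with micrococcal nuclease was precipitated with an anti-GFP antibody and sequenced from undifferentiated pre-adipocytes (2 samples) and from mature adipocytes (2 samples). The mature adipocytes had received a cocktail of IBMX, dexamethasone and insulin for 60 h and afterwards medium with insulin alone, and the labels give no day of harvest. A library made without antibody served as the single control for all 4 samples, although its description field names the anti-GFP antibody. Both conditions carried the transgene, so the tagged protein was measured and not the cells' own macroH2A1, and the methods call the transduced lines stable clones without saying how many were used. Conditions rest on the sample titles, since the description fields of both mature samples name the state before differentiation, and the methods speak of mouse adipose tissue where the labels name 3T3-L1. RNA was not measured in these samples, so adipocyte marker genes could not be used to check the labels.

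A region is a stretch of chromatin in which SICER, a program for broad enrichment, found more ChIP reads than in the scaled control. Before differentiation the samples had 36468 (replicate 1) and 38546 (replicate 2) regions, and after it 59375 (replicate 1) and 61196 (replicate 2). The second pre-adipocyte library was the shallowest, at 0.549 times the control library against 1.2 to 1.23 times for the others, and its median region held 57 ChIP reads against 121 to 186. A window without a region is therefore one where enrichment was not detected at this depth. The read counts below are printed without an error, and their spread between samples need not be counting error alone.

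In each sample, about as many ligand genes as not had a macroH2A1.2-GFP region in their window. Regions were found at 23 of the 47 genes in replicate 1 of pre-adipocytes and at 22 in replicate 2, where 35% and 30.3% of all 20807 genes had one. In mature adipocytes, they were found at 26 genes in replicate 1 and 24 in replicate 2, against 41.4% and 41.6% of all genes. As percentages of the ligand genes these counts were 48.9, 46.8, 55.3 and 51.1 in the same order. Since long genes meet more regions, each ligand gene was also set beside the 200 other genes nearest to it in window length. At the share of those genes, 15.8, 13.7, 18.6 and 18.9 of the 47 windows would have held a region, fewer than observed in every sample.

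**Figure D1:**
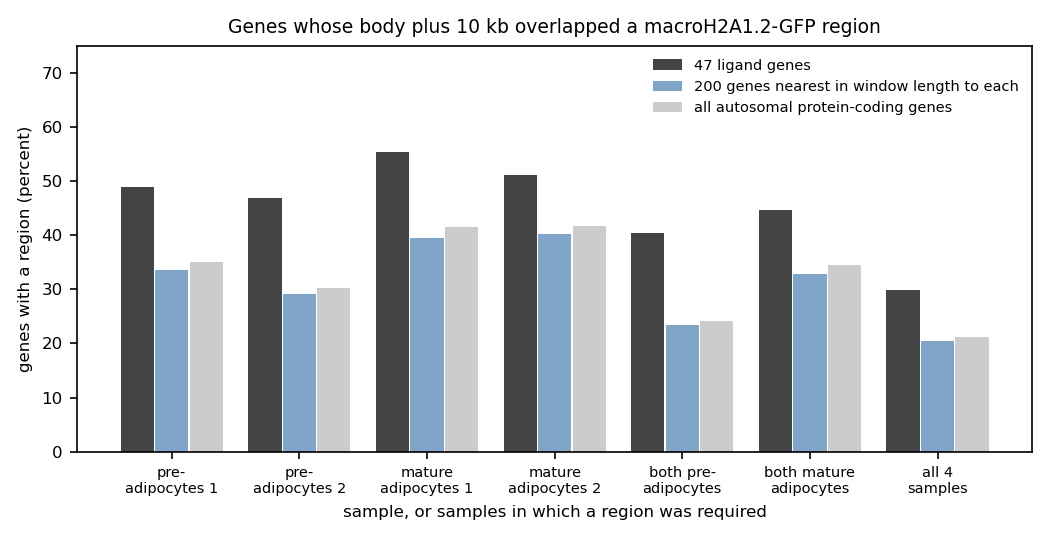
Percent of genes whose window (gene body plus 10 kb on each side) overlapped a region, in each sample and in both or all samples together; black bars are the 47 ligand genes, blue bars the mean over the 200 genes nearest in window length to each, and grey bars all 20807 autosomal protein-coding genes. The black bar stands highest in every set, at 40.4% in both pre-adipocyte samples and 44.7% in both mature samples.

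Both replicates of pre-adipocytes had a region at 19 ligand genes (24.2% of all genes, and 11.0 genes at the share of the nearest-length genes). Both replicates of mature adipocytes had one at 21 (34.4% of all genes, and 15.5 genes at the nearest-length share). All 4 samples had a region at 14 ligand genes, against 21.1% of all genes and 9.57 at the nearest-length share, and at least 1 sample had one at 31, against 53.7% and 24.3. These counts are descriptions of a list chosen by name, and no test was made over it. By family, the 27 genes of the TGF-beta superfamily were called in both pre-adipocyte samples in 14 cases and in both mature samples in 14, against 6.03 and 8.71 at the nearest-length share. The 20 FGF genes were called in 5 and 7 cases, against 4.94 and 6.75. The difference between the families was not tested. Over all 47 genes, the excess over nearest-length genes was smaller when regions with a fold enrichment under 2 were left out. Then 4 genes remained in both pre-adipocyte samples (Bmp4, Bmp6, Bmp8a and Gdf3; 2.93 at the nearest-length share). In both mature samples 8 remained (Bmp4, Bmp5, Bmp6, Bmp8a, Gdf10, Inhbb, Fgf10 and Fgf14; 6.57 at that share).

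Gene density around the windows was counted as a property that the choice of genes did not use. The median number of other protein-coding gene starts within 500 kb was 15.5 for the 26 ligand genes called in both samples of either condition and 11.0 for the 16 with no region, compared with 12 over all 47 and 16 over all genes. For the 200 genes nearest in length to each ligand gene, this median was 18.7 on average, so the comparison genes had denser surroundings. The part of gene density in the counts was not tested. The regions themselves were of the usual kind for their sample. Their median length was 5.9, 2.6, 3.3 and 3.2 kb in pre-adipocytes 1 and 2 and mature adipocytes 1 and 2, where the median of all regions was 5.8, 3.0, 3.6 and 3.4 kb. Their median fold enrichment over control was 1.58, 2.07, 1.82 and 1.78, against 1.61, 2.01, 1.79 and 1.82 for all regions.

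**Figure D2:**
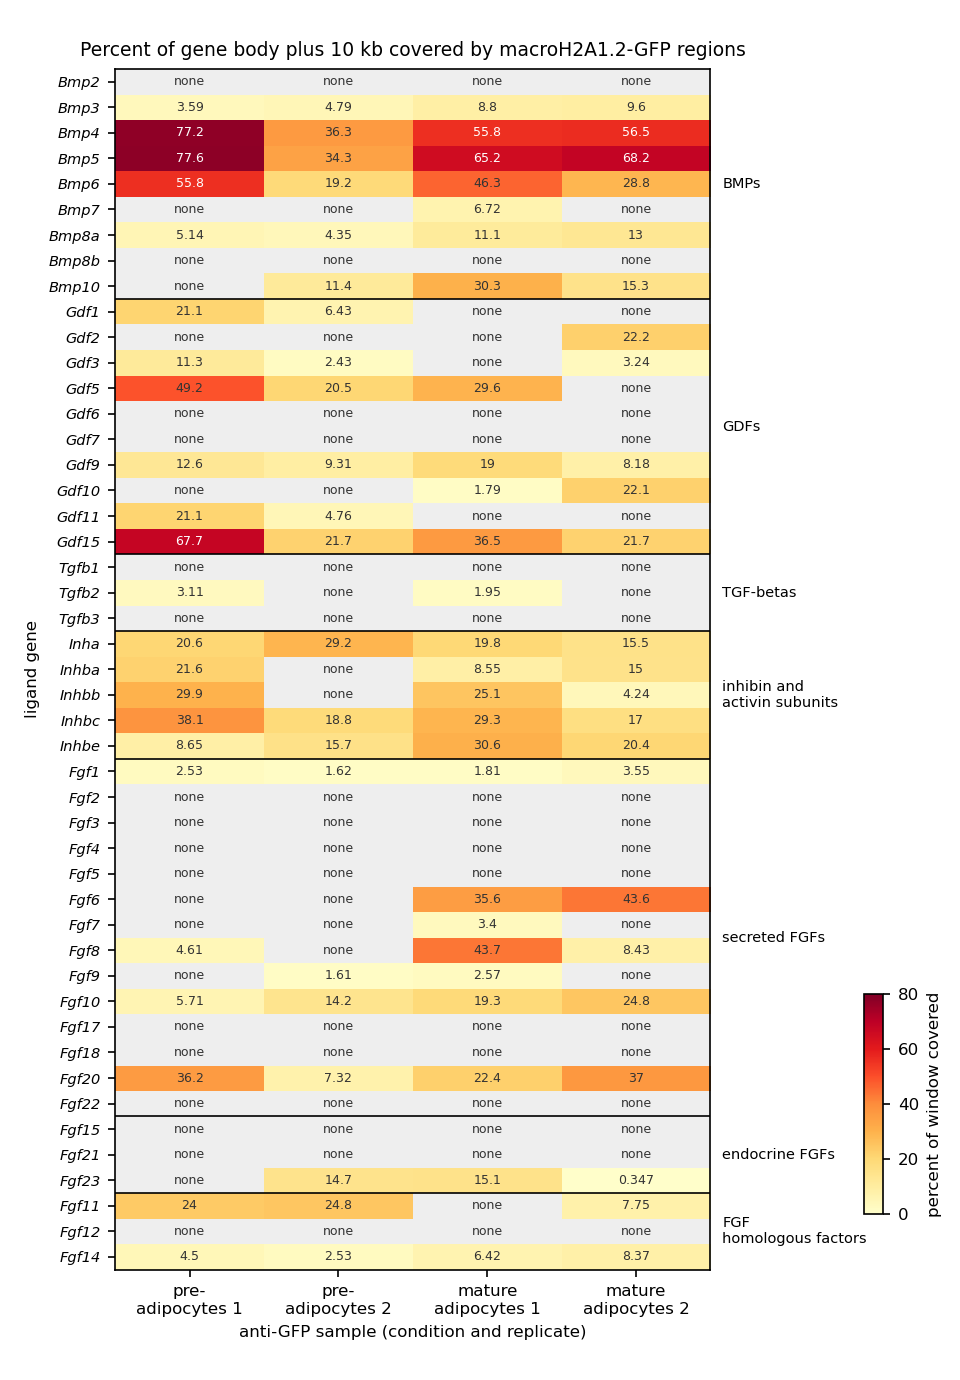
Percent of each ligand gene's window covered by regions, by gene (rows, grouped by family) and by sample (columns); grey cells marked none had no region. Bmp4, Bmp5 and Bmp6 are covered in all 4 columns, whereas 16 genes, among them Bmp2, Tgfb1, Fgf2 and Fgf21, have no region in any.

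Among the BMPs, 5 of 9 genes (Bmp3, Bmp4, Bmp5, Bmp6 and Bmp8a) had regions in all 4 samples, and Bmp2 and Bmp8b had none in any. Both replicates of pre-adipocytes had a region at 5 BMP genes and both of mature adipocytes at 6, where the nearest-length share would give 2.62 and 3.52. Bmp4, a BMP that commits mesenchymal precursors to the fat lineage, had 77.2% and 36.3% of its window covered in pre-adipocytes 1 and 2 and 55.8% and 56.5% in mature adipocytes 1 and 2. The low value was that of the shallow library, and the means of 56.8% ± 28.9 (SD, n = 2) and 56.2% ± 0.521 (SD, n = 2) differed by less than this spread. For the genes nearest in length to Bmp4 the mean was 5.05% and 7.08%.

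At Bmp4 (chr14:46383520-46390669, minus strand) regions lay on both sides of a gap at the start of the gene. The upstream 10 kb was covered by 84.7%, 26.7%, 80.7% and 54.7% in pre-adipocytes 1 and 2 and mature adipocytes 1 and 2, and the downstream 10 kb by 90.0%, 71.2%, 52.0% and 92.0%. The gene body held less, 48.7%, 1.13%, 26.3% and 9.52%, all of it towards the 3′ end. The start site was 532, 7069, 532 and 1532 bp from the nearest region. Part of the downstream signal also overlapped the neighbouring gene Gm15217, so these reads cannot be given to Bmp4 alone.

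**Figure D3:**
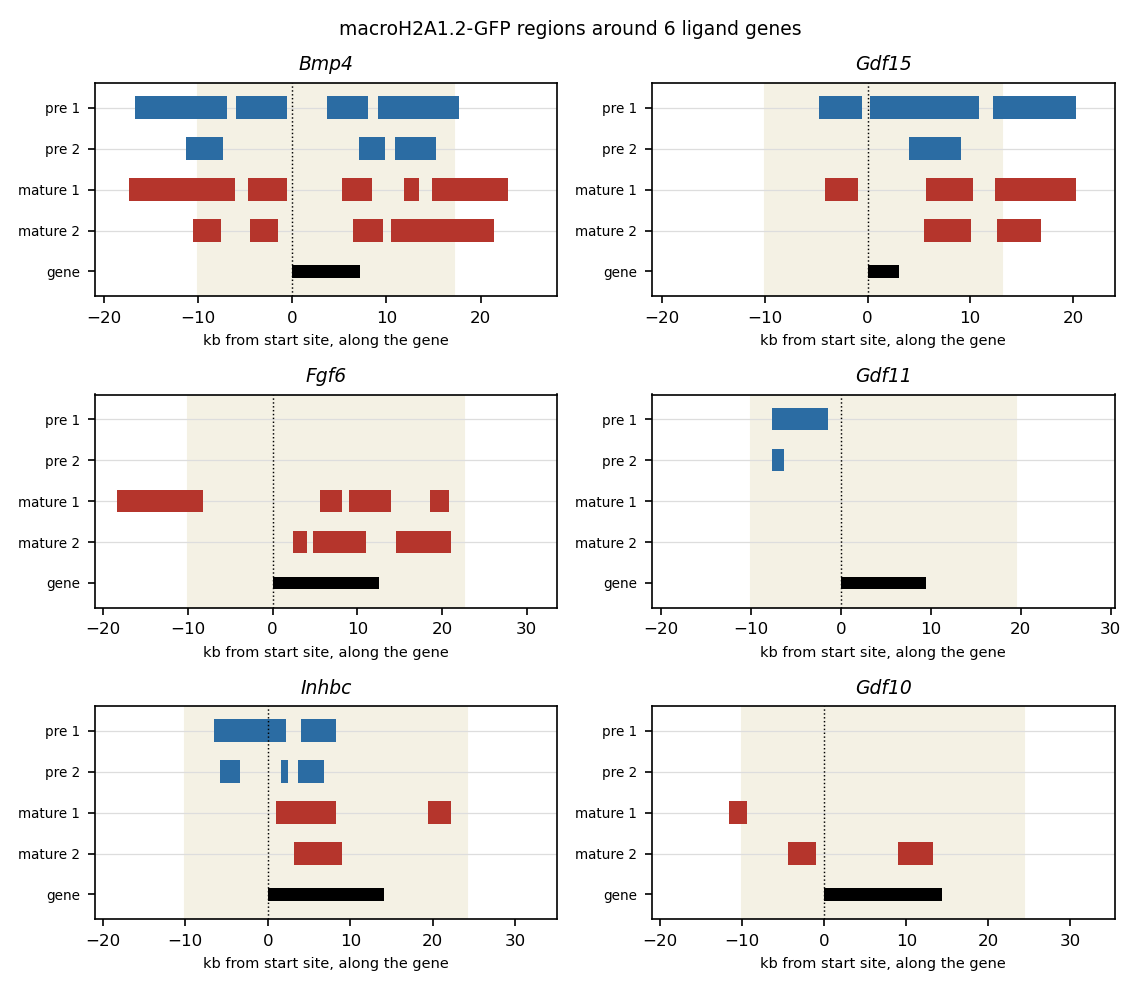
Regions that overlap the windows of 6 ligand genes, in kb from the start site along the direction of the gene; blue bars are regions in pre-adipocytes 1 and 2, red bars those in mature adipocytes 1 and 2, black bars the gene and the shaded span its window. No bar crosses the start of Bmp4, which lies 532 bp from the nearest bar in pre-adipocytes 1, Fgf6 and Gdf10 have red bars only, and Gdf11 has blue bars only.

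Bmp5 and Bmp6 belong to the same BMP subfamily as Bmp7, and their long bodies were crossed by chains of regions. Over Bmp5 (chr9:75775364-75900310, plus strand; window 145 kb), 13, 11, 19 and 19 regions covered 77.6%, 34.3%, 65.2% and 68.2% of the window in pre-adipocytes 1 and 2 and mature adipocytes 1 and 2. The nearest-length genes had mean coverages of 7.53% before differentiation and 10.6% after it. The ChIP reads in these regions numbered 4145, 1030, 3745 and 4181 and the control reads 2264, 1025, 1822 and 2102, a pooled fold enrichment of 1.52, 1.83, 1.67 and 1.65. Bmp5 was thus widely covered, at a pooled fold under 2 in every sample. The median fold of all regions was 1.61, 2.01, 1.79 and 1.82. Its exons were covered by 92.4%, 51.5%, 72.2% and 73.0%.

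Over Bmp6, which regulates hepcidin in the liver (chr13:38345107-38500302, plus strand; window 175 kb), 14, 11, 21 and 13 regions covered 55.8%, 19.2%, 46.3% and 28.8% of the window. The means were 37.5% ± 25.9 (SD, n = 2) before differentiation and 37.6% ± 12.4 (SD, n = 2) after it. No region reached the last 10 kb downstream of Bmp6 in any sample. Bmp7, which promotes brown fat, was covered in mature adipocytes 1 alone, by 6.72%, with 2 regions of 80 and 104 ChIP reads inside the gene.

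**Figure D4:**
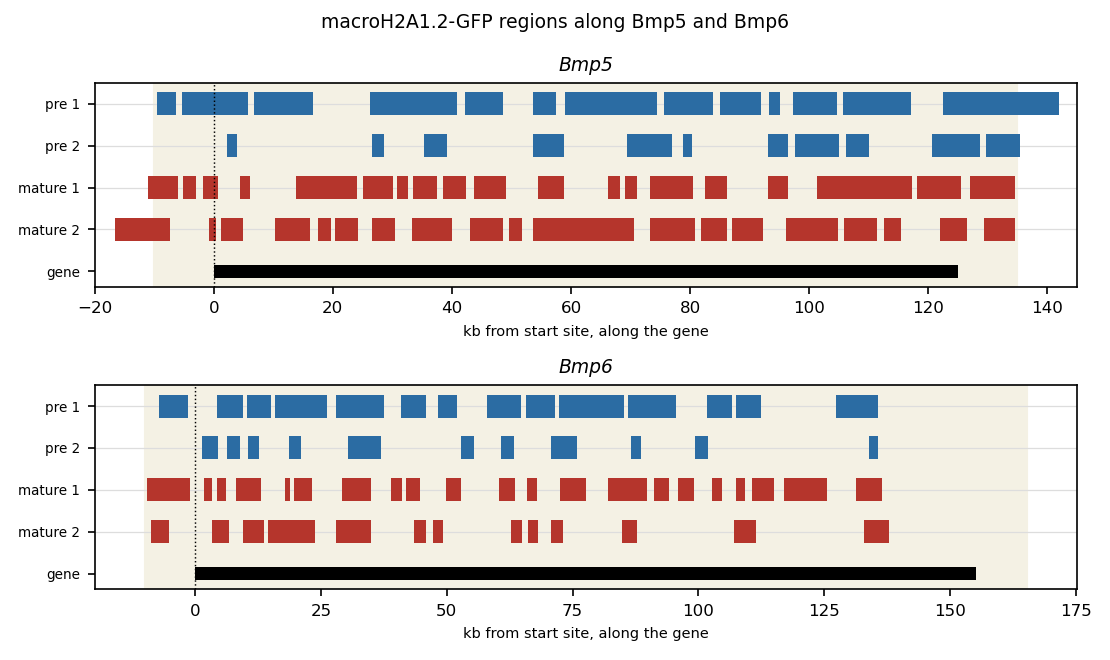
Regions along Bmp5 and Bmp6 in kb from the start site; blue bars are regions in pre-adipocytes 1 and 2, red bars those in mature adipocytes 1 and 2, black bars the gene and the shaded span its window. Bars are spread along Bmp5 in every sample, 13, 11, 19 and 19 of them from top to bottom, and stop short of the 3′ end of Bmp6.

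The other BMP genes with regions held small shares of their windows. Bmp8a, a ligand of the germ line, was covered by 5.14%, 4.35%, 11.1% and 13.0% and Bmp3, an antagonist of other BMPs, by 3.59%, 4.79%, 8.8% and 9.6%, in the same order of samples. In both genes the mature samples lay above the pre-adipocyte samples. The places differed at Bmp3, where the body was covered by 14.7% and 15.3% in mature adipocytes 1 and 2. In pre-adipocytes its regions lay downstream of the gene only. The regions of Bmp8a lay within the gene at pooled folds of 2.76 to 3.11, but those of the 2 pre-adipocyte samples did not overlap each other. Bmp10, a heart and liver ligand, had no region in pre-adipocytes 1 and was covered by 11.4%, 30.3% and 15.3% in the other samples, mostly downstream of the gene.

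Among the GDFs, fewer genes were called in both mature samples than in both pre-adipocyte samples. Of 10 genes, 6 had a region in both pre-adipocyte samples and 3 in both mature samples, where the nearest-length share would give 1.76 and 2.67. Gdf15, which encodes a circulating stress factor, and Gdf9, an oocyte factor, had regions in all 4 samples, and Gdf6 and Gdf7 in none. Gdf15 (chr8:70629393-70632456, minus strand) was covered by 67.7% and 21.7% before differentiation and 36.5% and 21.7% after it. Its exons lay under a region in pre-adipocytes 1 alone, with 86.2% covered, and in the other samples the regions lay beside the gene. Gdf9 was covered by 12.6%, 9.31%, 19.0% and 8.18%, all of it downstream.

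Gdf1 and Gdf11 had a region in both replicates of pre-adipocytes and in neither of mature adipocytes, a pattern found in 0.913% of all genes and in 0.415 of 47 genes at the nearest-length share. Gdf11, a close relative of myostatin, was covered by 21.1% and 4.76% in pre-adipocytes. The 2 regions overlapped each other upstream of the gene, at chr10:128893201-128899400 with 179 ChIP and 85 control reads (fold 1.75) and at chr10:128898001-128899400 with 36 ChIP and 22 control reads (fold 2.98). In mature adipocytes, the nearest regions were 13083 and 13483 bp from the start site. Gdf1, a partner of Nodal in the embryo, was covered by 21.1% and 6.43% in pre-adipocytes, through regions upstream that also overlapped Cers1. These regions held 153 and 32 ChIP reads at folds of 1.72 and 2.33. The pattern depended on the window and the thresholds. With 25 kb on each side, Gdf11 had a region in all 4 samples, and with 5 kb Gdf11 and Gdf1 had one in 1 sample each. An FDR of at most 1e-05 left Gdf1 with 1 sample, and a fold enrichment of at least 2 left each gene with 1. Neither gene had a region over its body alone.

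Gdf10 was, with Fgf6, the reverse case, with a region in both mature samples and in neither pre-adipocyte sample, found in 4.86% of all genes and in 2.17 of 47 genes at the nearest-length share. Gdf10, also called BMP3b, was covered by 1.79% and 22.1% in mature adipocytes. The regions of the 2 replicates did not overlap each other, and that of replicate 1 reached the window by its edge only, so that 1 sample was left with 5 kb on each side or with an overlap of at least 1000 bp. Replicate 2 had 2 regions of 100 and 118 ChIP reads, the second of which also lay in the window of the neighbouring Gdf2, a ligand of endothelial cells, since these windows share 16945 bp. Gdf5, a joint and cartilage factor, was covered by 49.2%, 20.5% and 29.6% in the first 3 samples and not in mature adipocytes 2. Gdf3, which inhibits BMPs, was covered by 11.3% and 2.43% in pre-adipocytes and by 3.24% in mature adipocytes 2, through short regions of 24 to 98 ChIP reads with folds of 3.14 to 6.25.

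Of the 3 TGF-betas, which hold preadipocytes undifferentiated, none was called in both samples of either condition. No sample had a region at Tgfb1 or Tgfb3. Tgfb2 had 1 in replicate 1 of each condition, covering 3.11% and 1.95% of its window downstream of the gene. At the nearest-length share, 0.78 and 1.19 of 3 genes would be called in both pre-adipocyte samples and in both mature samples. The nearest region to the start of Tgfb1 lay 77402 bp away.

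All 5 inhibin and activin subunit genes had a region in both mature samples and 3 of them in both pre-adipocyte samples, against 1.33 and 0.865 at the nearest-length share. Inha, the alpha subunit that makes inhibins, was covered by 20.6% and 29.2% in pre-adipocytes and 19.8% and 15.5% after differentiation. These were single regions downstream of the gene that overlapped in all 4 samples, with 142, 113, 144 and 133 ChIP reads. Inhba, the subunit of activin A, was covered by 21.6% in pre-adipocytes 1, not at all in pre-adipocytes 2, and by 8.55% and 15.0% in mature adipocytes, almost all of it upstream. Inhbb, the subunit of activin B, was covered by 29.9% in pre-adipocytes 1 and by 25.1% and 4.24% in mature adipocytes 1 and 2. Pre-adipocytes 2, the shallow library, was the one without a region in both genes.

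Inhbc and Inhbe, beta subunits made mainly in liver, are neighbours whose windows share 18090 bp, so they are not independent. Inhbc (chr10:127356322-127370431, minus strand) was covered by 38.1%, 18.8%, 29.3% and 17.0%, and Inhbe by 8.65%, 15.7%, 30.6% and 20.4%. At Inhbc, regions upstream of the gene were found in both pre-adipocyte samples, with 65.7% and 24.0% of the upstream 10 kb covered, and in neither mature sample. The region within the Inhbc body was found in all 4 samples.

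Of the 14 other secreted FGF genes, 3 (Fgf1, Fgf10 and Fgf20) had regions in all 4 samples and 7 (Fgf2, Fgf3, Fgf4, Fgf5, Fgf17, Fgf18 and Fgf22) had none in any. The windows of Fgf3 and Fgf4 share 17070 bp, so these genes are not independent. Both replicates had a region at 3 genes in pre-adipocytes and at 5 in mature adipocytes, against 3.24 and 4.64 at the nearest-length share, so this family did not stand above genes of like length. Fgf10, which acts on preadipocytes, was covered by 5.71% and 14.2% before differentiation and 19.3% and 24.8% after it. Fgf20, a growth factor of the inner ear, was covered by 36.2%, 7.32%, 22.4% and 37.0%. Fgf1, a growth factor of fat tissue, had 1 or 2 regions per sample, and 1.62% to 3.55% of its window covered, and the regions of the 2 pre-adipocyte samples did not overlap each other. Every region at Fgf1, in all 4 samples, also overlapped the gene Arhgap26, so these reads cannot be given to Fgf1 alone.

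Fgf6 showed the widest difference between conditions in this family. Fgf6 (chr6:127015586-127028187, plus strand), a muscle growth factor, had no region in either pre-adipocyte sample and 35.6% and 43.6% of its window covered in mature adipocytes, by 4 regions with 717 ChIP and 345 control reads in replicate 1 and by 3 regions with 504 ChIP and 202 control reads in replicate 2. The mean of 39.6% ± 5.61 (SD, n = 2) compares with 6.02% for the genes nearest to it in length. In pre-adipocytes, the nearest regions were 10813 and 47413 bp from the gene, the first of them just past the edge of the window. With 25 kb on each side, Fgf6 thus had a region in 3 samples, and at a fold enrichment of at least 2 in 1. The exons of Fgf6 were covered by 77.0% and 56.3% in mature adipocytes 1 and 2. With 2 samples against 2, a two-sided exact permutation test of the covered share cannot give a p under 0.33, so the differences at Fgf6, Gdf1, Gdf10 and Gdf11 are given as descriptions. Fgf8, an embryonic patterning factor, was covered by 4.61% in pre-adipocytes 1 and by 43.7% and 8.43% in mature adipocytes. Fgf7, which acts on epithelia, and Fgf9, a factor of the male gonad, had single regions covering 1.61% to 3.4% of their windows and were called in both samples of neither condition.

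Of the endocrine FGFs, Fgf23, the phosphate hormone, was covered by 14.7% in pre-adipocytes 2 and by 15.1% and 0.347% in mature adipocytes, and Fgf15 and Fgf21 had no region. The second mature value was an edge overlap of a region whose centre was at -11401 bp from the start. Of the FGF homologous factors, which bind sodium channels, Fgf14 had 6, 6, 16 and 18 regions in its window of 719 kb, covering 4.5%, 2.53%, 6.42% and 8.37%. Fgf12 had none in its window of 613 kb, although genes of that length had regions in both replicates in 46.5% of cases in pre-adipocytes and 53.5% in mature adipocytes. Fgf11 was covered by 24.0% and 24.8% in pre-adipocytes, not in mature adipocytes 1, and by 7.75% in mature adipocytes 2, through regions that also overlapped Tmem102 or Chrnb1.

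Start sites were rarely inside a region, among ligand genes as among all genes. In pre-adipocytes 1 and 2 and mature adipocytes 1 and 2, the shares of ligand genes were 6.38%, 0%, 4.26% and 4.26%. Those of all genes were 6.14%, 2.3%, 5.78% and 5.43%. In no case was the start of a ligand gene in a region of both pre-adipocyte samples, against 1.33% of all genes. In both mature samples the starts of Bmp5 and Fgf10 were in one, against 2.8% of all genes. The annotated start of Fgf10 belongs to a non-coding transcript of the gene, and its coding start was 2502 and 2702 bp from the nearest region in mature adipocytes. The start of Bmp5 was inside a region in pre-adipocytes 1 and in both mature samples, and 2236 bp from one in pre-adipocytes 2 when measured from its RefSeq start. Single samples also had a region at the starts of Gdf5 and Inhbc (pre-adipocytes 1). Among the starts of other coding transcripts, that of Fgf20-201 was in a region in pre-adipocytes 1 and mature adipocytes 2, and those of Bmp6-202 and Gdf15-201 were in one in pre-adipocytes 1. At 10 kb from the start in the direction of the gene, 12.8%, 4.26%, 17.0% and 19.1% of ligand genes had a region, against 7.46%, 3.48%, 7.42% and 7.35% of all genes. At 10 kb before the start, the shares were 8.51%, 4.26%, 14.9% and 12.8%, against 13.2%, 5.98%, 13.5% and 12.5%, so there the ligand genes were below all genes in both pre-adipocyte samples and nearly level with them in both mature samples. This order did not hold nearer the start. At 4 kb before it, the shares were 23.4%, 6.38%, 14.9% and 8.51%, against 13.0%, 5.88%, 11.7% and 11.2%.

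By part of the window, 10.2%, 5.14%, 10.4% and 10.8% of the intronic bases of the 47 genes lay under regions in pre-adipocytes 1 and 2 and mature adipocytes 1 and 2. For exonic bases, which made up 4.65% of the windows, the shares were 7.7%, 3.05%, 11.4% and 8.69%. The upstream 10 kb had 17.1%, 3.8%, 11.7% and 8.54% covered and the downstream 10 kb 11.5%, 9.56%, 14.7% and 10.6%. The order of the parts differed between the replicates of each condition, so none of them was covered most throughout.

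The sequences before 4 start sites are shown because these genes contrast within their families: the starts of Bmp5 and Inhbc lay in a region of at least 1 sample and those of Bmp4 and Inhbb in none, although all 4 genes had regions nearby. They were chosen after these values were seen. Each is the run of 250 bases before the start in the RefSeq annotation of GRCm38.p6, written 5′ to 3′ on the strand of the gene, with CG dinucleotides in capitals. They lie at chr9:75775115-75775364 (plus strand) for Bmp5, chr10:127370549-127370798 (minus strand) for Inhbc, chr14:46390670-46390919 (minus strand) for Bmp4 and chr1:119422249-119422498 (minus strand) for Inhbb.
Bmp5: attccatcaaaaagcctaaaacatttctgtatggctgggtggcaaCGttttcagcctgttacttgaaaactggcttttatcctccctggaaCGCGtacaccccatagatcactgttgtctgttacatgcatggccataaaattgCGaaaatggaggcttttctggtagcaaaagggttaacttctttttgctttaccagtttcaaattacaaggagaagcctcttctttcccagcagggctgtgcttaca
Inhbc: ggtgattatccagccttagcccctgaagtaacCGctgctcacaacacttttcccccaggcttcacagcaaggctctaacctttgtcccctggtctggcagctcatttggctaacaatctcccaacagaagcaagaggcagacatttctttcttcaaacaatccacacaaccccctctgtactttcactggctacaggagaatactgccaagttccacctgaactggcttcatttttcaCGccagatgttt
Bmp4: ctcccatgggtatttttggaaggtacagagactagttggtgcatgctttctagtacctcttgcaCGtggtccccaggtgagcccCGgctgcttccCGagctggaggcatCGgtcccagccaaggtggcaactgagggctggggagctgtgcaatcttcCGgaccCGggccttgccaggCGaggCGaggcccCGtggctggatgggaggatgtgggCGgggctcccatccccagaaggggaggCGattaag
Inhbb: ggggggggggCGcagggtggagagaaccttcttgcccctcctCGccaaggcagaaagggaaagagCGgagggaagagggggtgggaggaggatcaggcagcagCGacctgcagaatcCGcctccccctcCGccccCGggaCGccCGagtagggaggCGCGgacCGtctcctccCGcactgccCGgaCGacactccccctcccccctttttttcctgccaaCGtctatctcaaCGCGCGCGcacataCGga

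The Bmp5 and Inhbc sequences held 4 and 2 CG dinucleotides, with a GC content of 42.8% and 48.8%. The Bmp4 and Inhbb sequences held 11 and 21, with a GC content of 63.2% and 68.0%. This contrast did not hold throughout these families. The sequences before Bmp10, Inha and Inhba held 3, 4 and 3 CG dinucleotides, and their starts lay in no region of any sample. Over all 31396 autosomal sequences of this kind in the table, the median was 6.0, and it was 3.0 where the start lay in a region of both mature samples, 3.0 where it lay in a region of both pre-adipocyte samples and 7.0 where it lay in no region. For ligand genes, the median was 11.0 over the 39 starts of the 34 genes that the table held. This median counts starts and not genes, and Fgf12 entered it with several starts of 18 to 25 CG dinucleotides. Of 4 short motifs searched on both strands, CAGACA was found before Bmp5 and Inhbc (16.9% of all sequences), CACGTG before Bmp4 (6.02%), and AGATAA (9.94%) and TATAAA (12.4%) before none of the 4. These matches describe letters in 250 bases and are not evidence of a bound factor.

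Between conditions, the number of ligand genes with a region was 22.5 ± 0.707 (SD, n = 2) before differentiation and 25 ± 1.41 (SD, n = 2) after it. The share of the summed windows covered was 11.2% and 5.46% in the pre-adipocyte samples and 11.2% and 10.4% in the mature samples. The 3 deeper libraries lay between 10.4% and 11.2%, and the difference of 2.47 percentage points between the condition means turned to -0.398 without the shallow one. The part of depth in the differences between conditions was not tested. Among all genes, the share of the summed windows was 8.08%, 3.74%, 8.35% and 8.07%, with the same low sample.

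ChIP reads could be tested at places that were called in all 4 samples. A place was a stretch of merged, overlapping regions, so the regions of 2 samples in it need not overlap each other. At Bmp8a, those of the pre-adipocyte samples did not. A place can also run past the window, as at Bmp10, where the region of pre-adipocytes 1 lay outside it. The main test scaled reads to the called length, so a change in called extent alone could not show in it. At the start of Bmp5, the called length was 11.2, 1.6, 6.2 and 4.8 kb in pre-adipocytes 1 and 2 and mature adipocytes 1 and 2. Of 62927 places obtained by merging overlapping regions, 116 overlapped ligand windows, and 20 of these were called in all 4 samples. None of the 20 differed between conditions at an adjusted p under 0.05 by edgeR's quasi-likelihood test, where 0.0856% of all 12857 such regions did. By unadjusted p under 0.05, 2 of the 20 did, or 10%, compared with 9.15% of all, and DESeq2's Wald test had 0 of the 20 at that level but filtered all 20 out before adjusting p. They comprised 5 regions at Bmp5, 5 at Bmp6, 2 at Bmp4 and 1 each at Bmp3, Bmp8a, Bmp10, Gdf9, Gdf15, Inha and Fgf10, with 1 shared by Inhbc and Inhbe. The median log2 fold change of mature adipocytes over pre-adipocytes, per called length, was 0.04 against 0.00 over all tested regions.

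The highest log2 fold change was at chr13:38373001-38382600 inside Bmp6, with 309 and 105 ChIP reads over 9.6 and 6.6 called kb in pre-adipocytes and 236 and 308 over 5.8 and 7.0 kb in mature adipocytes. Per called kb and relative library size, this was 26.8, 29.0, 33.2 and 36.5 reads. Both mature values lay above both pre-adipocyte values, with a log2 fold change of 0.31 (SE 0.128) and an edgeR adjusted p of 0.44. This direction rests on the scaling to called length, since the log2 fold change was -0.24 without it. The lowest log2 fold change was at chr10:127361401-127377000, which overlapped the windows of both Inhbc and Inhbe. It held 26.3, 44.1, 26.1 and 26.4 reads per called kb and relative library size, with the highest value in pre-adipocytes 2. On this scale, pre-adipocytes 2 was also highest at each of the 5 regions along Bmp5. The test instead scaled the libraries by their counts in the tested regions (TMM). There the log2 fold change was -0.30 (SE 0.133, edgeR adjusted p of 0.476). At Bmp4, the regions downstream and upstream had log2 fold changes of 0.03 (SE 0.0748) and 0.21 (SE 0.113), with edgeR adjusted p of 0.929 and 0.601. The 5 regions along Bmp5 had log2 fold changes of -0.13 to 0.20. Fgf6, Gdf1, Gdf10 and Gdf11 were outside this test, having no region called in all samples.

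**Figure D5:**
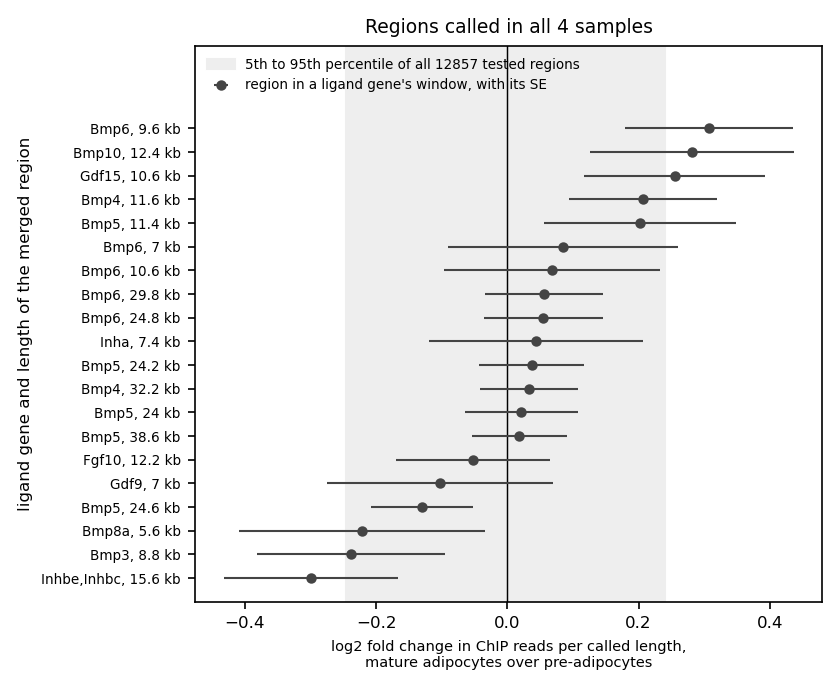
Log2 fold change in ChIP reads per called length, mature adipocytes over pre-adipocytes, for the 20 merged regions in ligand windows called in all 4 samples (points, with SE as bars), named by gene and length of the merged region; the grey band spans the 5th to 95th percentile of all 12857 tested regions. The points run from -0.30 at Inhbc and Inhbe to 0.31 at Bmp6 and none passed the test.

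Genes for other steps of these pathways were counted in the same way. Of 21 receptor and co-receptor genes, 14 had a region in both pre-adipocyte samples, 15 in both mature samples and 13 in all 4, against 6.46, 8.74 and 5.73 at the nearest-length share. Acvrl1, the receptor for Gdf2 and Bmp10, was covered by 67.4%, 14.7%, 75% and 54.4%, and Kl, the Klotho co-receptor of Fgf23, by 11.8%, 18.6%, 47.1% and 38.2%. Bmpr2, Tgfbr2 and Fgfrl1 had no region. Of 10 SMAD and FRS genes, 1 had a region in both pre-adipocyte samples, 2 in both mature samples and 0 in all 4, against 3.02, 4.13 and 2.67. Smad1, a transducer of BMP signals, was covered by 12% and 11% in mature adipocytes and by no region in pre-adipocytes. Of 20 genes for antagonists and binding proteins, the counts were 7, 10 and 7, against 4.74, 6.72 and 4.16. Chrd and Fst, which trap BMPs and activins, had regions in all 4 samples, whereas Nog and Bambi had none.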

How the data were processed

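Chromatin bound by macroH2A1.2-GFP was measured by ChIP-Seq in 3T3-L1 pre-adipocytes (2 samples) and mature adipocytes (2 samples), which the study calls biological duplicates. Nothing more in the labels says how separate the cultures were, so p-values measure only the spread between these samples. According to the submitters' processing notes, Bowtie 1.1.2 aligned reads to mm10, Picard was used, and SICER 1.1 called regions; the authors called them in each sample separately. For every region, the authors deposited raw counts of ChIP and control reads, a p-value and an FDR, and a fold enrichment, which is a ratio of ChIP over control reads after scaling by library size. The largest deposited FDR was 0.001. Depth came to 9876187, 2833105, 11592708 and 11202845 ChIP reads in regions, pre-adipocytes first, and limits the second sample most.

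From these tables, overlaps of at least 1 bp between regions and GENCODE M21 gene windows were counted, and covered bases were summed. Members and gene lists were chosen with earlier results of these data known. Genes named are those called in both samples of either condition, with a start site in a region, with no region, or with a tested region, besides neighbours under the same region; Bmp7, Gdf2, Tgfb2, Fgf7 and Fgf9, which have regions but meet none of these, and genes of the pathway lists were named after their values were seen, to account for every member. ChIP counts of the 12857 merged places with a call in every sample were tested by edgeR 4.0.16 (quasi-likelihood, TMM on counts per called length, offset of log called length, Benjamini-Hochberg over all of them) in R 4.3.3. The test was checked on simulated counts that kept the called lengths of the data. DESeq2 1.42.0 served as an alternative, and Python 3.11.15, pandas 2.3.3 and numpy 2.4.6 did the rest. Other alternatives varied the FDR, fold enrichment, window, overlap, comparison genes, normalization, filter, length offset, replicate block and the replicate left out. Promoter sequences came from RefSeq (GRCm38.p6), of which the 250 bases before each start were used; 34 of 47 genes matched. The control sample has no table of regions, and reads and coverage tracks were not used here.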

Additional observations from a re-analysis of the deposited data

How the results depend on the processing

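The counts of ligand genes with a region in both replicates were 19 in pre-adipocytes and 21 in mature adipocytes. Both stayed within 1.5 times under an FDR of at most 1e-05, windows with 5 or 25 kb and an overlap of at least 1000 bp. They did so too when the replicates' regions had to overlap each other. They fell to 4 and 8 with a fold enrichment of at least 2. Over gene bodies alone they fell to 8 and 11 (5.06 and 7.6 at the nearest-length share). Within 2 kb of the start site they fell to 3 and 3 (1.88 and 2.82). Leaving out 1 replicate left the count of the other sample, 23 or 22 in pre-adipocytes and 26 or 24 in mature adipocytes. Such a count cannot be lower than that in both replicates, so it does not show whether the latter is stable. The difference in covered share (2.47 points) ran from -0.398 to 5.33 when 1 replicate was left out, the lowest value without pre-adipocytes 2.

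Of all 12857 tested regions, 11 passed edgeR's test, against 0 with library sizes relative to the control (68 at an unadjusted p under 0.05), 12 with DESeq2 size factors, 6 by DESeq2's Wald test, which gave 643 regions an adjusted p, 3 without the length offset and 56 with at least 100 ChIP reads in every sample. Without 1 replicate, the count ran from 1 (mature adipocytes 2) to 224 (pre-adipocytes 2), with 112 without pre-adipocytes 1 and 5 without mature adipocytes 1. With the replicate number as a block it was 27. Deviations from the condition means correlated at 0.00775 for same-numbered samples and at -0.00775 for differently numbered ones. With 2 samples per condition, these are the same value with its sign turned, so they cannot decide whether the numbers pair the samples. None of the 20 regions at ligand genes passed under any setting that gave them an adjusted p.

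Signs of small log2 fold changes were unstable, and the cause was not tested. Without the length offset, those of Inha (-0.852), Bmp6 (-0.179, -0.244, -0.841, -0.532 and -0.0461), Bmp4 downstream (-0.143), Bmp8a (0.245), Gdf15 (-0.714) and Bmp5 (-0.0471 at the start, -0.193 at chr9:75868401-75892600) reversed. The Bmp6 region at chr13:38472401-38483000 also reversed under DESeq2's Wald test (-0.0505) and the replicate block (-0.0191). Leaving out 1 replicate, changes ran from -0.438 to 0.216 there, from -0.0167 to 0.0855 at chr13:38410801-38440600 and from -0.0263 to 0.145 at chr13:38346401-38371200 in Bmp6. Along Bmp5 they ran from -0.145 to 0.301 at the start, then from -0.0491 to 0.0433, from -0.0164 to 0.0363 and from -0.0337 to 0.104. They ran from -0.371 to 0.0747 at Bmp8a, from -0.279 to 0.0531 at Gdf9, from -0.21 to 0.0221 at Fgf10, from -0.0752 to 0.173 at Inha and from -0.0208 to 0.0885 at Bmp4 downstream. With 1 sample in a condition, that sample was assumed to vary like the other group.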
